A study of Mus musculus with 4 samples.

Results

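The 9 genes described here, Foxf1, Foxf2, Foxd1, Foxd2, Foxl1, Foxc1, Foxc2, Foxp1 and Foxp2, are forkhead transcription factors of facial mesenchyme. They were taken by symbol from a table of 24972 genes, and all 9 were found. RNA was measured in the mandibular dental arch (the part of the mandible that carries the teeth) at day 17.5 of mouse gestation. There were 2 libraries homozygous for a variant of Ascl5 (Ascl5MutMut, libraries 18 and 14, called mutant here) and 2 wild-type libraries (Ascl5WTWT, libraries 15 and 20). The protein made from Ascl5 belongs to the basic helix-loop-helix family of transcription factors, and the question of the study is which genes differ in expression when it carries the variant. The labels say nothing of the strain, of the change in Ascl5 or of whether a library came from 1 embryo or several. The codes differ between genotypes, so libraries were not paired, and p-values measure the spread between these libraries, which may be technical.

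Forkhead proteins bind DNA through a shared winged-helix domain. In the embryonic face of the mouse, Foxf1, Foxf2, Foxd1, Foxd2 and Foxl1 are expressed in mesenchyme near epithelium that secretes Sonic hedgehog, and several of them respond to that signal. Foxc1 and Foxc2 act in neural crest, bone and vessels, and Foxp1 and Foxp2 in cartilage, bone and many other tissues.

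Values are the authors' normalized counts, and log2 fold changes are mutant minus wild type, fitted with limma over all genes and adjusted by Benjamini-Hochberg. None of the 9 genes passed an adjusted p of 0.05, where 0.0111% of the 17979 genes tested did. At an unadjusted p under 0.05 there was 1 member, Foxf2, against 4.27% of all genes (1.15% lower and 3.12% higher in mutant). In 4 members, Foxf1, Foxf2, Foxd2 and Foxc2, both mutant libraries lay below both wild-type libraries, and in none did they lie above. With 3 libraries this was 4 lower and 3 higher without mutant 18, 4 lower and 2 higher without wild-type 15, 7 lower without mutant 14 and 6 lower without wild-type 20. Over all genes tested, 27.4% did not overlap between genotypes with all 4 libraries, 14% lower and 13.4% higher in mutant. With 3 libraries fewer values have to be separated, so the counts with 3 libraries are not to be set against this share. The median log2 fold change of the 9 was -0.21, beside 0.0025 for all genes tested. For a single gene, the smallest p of an exact permutation test (two-sided) with this number of libraries is 0.333.

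Library totals lay between 22134483 and 22578580 normalized counts. Ascl5 was at 10.6 and 12.1 in mutant libraries 18 and 14, and at 21.8 and 37.3 in wild-type libraries 15 and 20. What the variant does to the transcript is not given, so this level does not check the labels. Wild-type library 15 was the one library with high Xist, a noncoding RNA that coats a silenced X, and with the Y-linked gene Ddx3y at 0, so sex was not balanced. All 9 dental mesenchyme markers and all 9 dental epithelium markers listed for the tissue were detected, with none at 0 in every library.

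**Figure D1:**
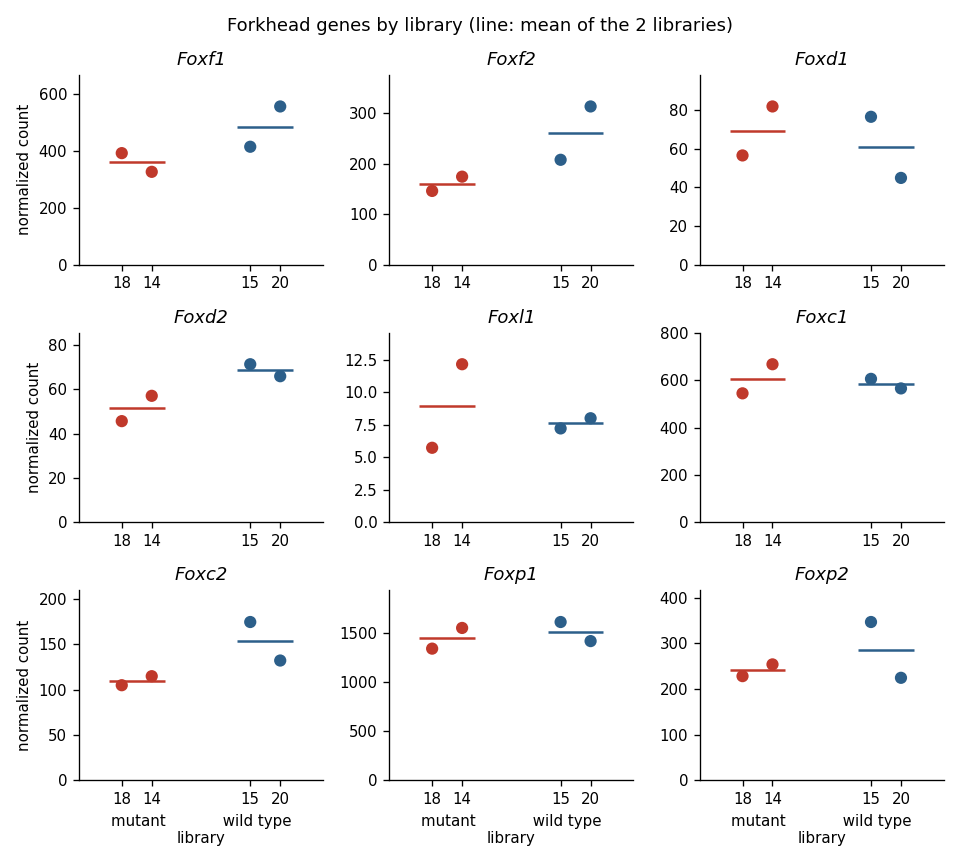
Normalized counts (y axis, from 0) of the 9 forkhead genes in each library, with mutant libraries 18 and 14 on the left in red and wild-type libraries 15 and 20 on the right in blue. Lines are means of 2 libraries. Foxf1, Foxf2, Foxd2 and Foxc2 have both red points below both blue points, and the other 5 genes overlap.

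Foxf1 and Foxf2 are close relatives that act together in mesenchyme below epithelium, and mice without Foxf2 have a cleft palate. Foxf2 (chr13:31625816-31631403, + strand) was at 146 and 174 in mutant libraries 18 and 14, against 208 and 313 in wild-type libraries 15 and 20. The genotypes did not overlap, and wild-type 20 stood well above the other libraries. The means were 160.3 ± 19.98 in mutant and 261 ± 74.7 in wild type (SD, n = 2 each). The log2 fold change was -0.68 (SE 0.26, 95% interval -1.27 to -0.08), a level of 0.626 times wild type, with an unadjusted p of 0.0306 and an adjusted p of 0.9999 (limma). Foxf1 (chr8:121084386-121088144, + strand) was at 393 and 327 in mutant libraries 18 and 14, and at 415 and 557 in wild-type libraries 15 and 20. Its genotypes did not overlap either, but mutant 18 and wild-type 15 were close together. The log2 fold change was -0.42 (SE 0.20, 95% interval -0.90 to 0.05, unadjusted p = 0.0716, limma adjusted p = 0.9999).

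For both genes the difference was smallest without wild-type library 20. Without wild-type 20, the log2 fold changes came to -0.38 for Foxf2 and -0.21 for Foxf1, and without wild-type 15, which left the 3 libraries with Ddx3y, to -0.97 and -0.64. The ratio of Foxf2 to Foxf1 in the same library was 0.372 and 0.534 in mutant arches, against 0.501 and 0.563 in wild type, and overlapped.

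The promoter of Foxf2 is shown because this gene had the lowest fold change among the members, and those of Foxd2 and of the noncoding RNA Fendrr because each starts beside a partner on the other strand whose genotypes did not overlap either. Each is the 250 bases before the start given by RefSeq (GRCm38.p6), on the gene's own strand, for Foxf2 chr13:31625566-31625815, for Foxd2 chr4:114908899-114909148 and for Fendrr chr8:121083111-121083360. Capitals mark CAGCTG in Foxf2, GGGCGG in Foxd2 and GTAAACA in Fendrr, searched on both strands, so that the matches in Foxd2 read CCGCCC.
Foxf2: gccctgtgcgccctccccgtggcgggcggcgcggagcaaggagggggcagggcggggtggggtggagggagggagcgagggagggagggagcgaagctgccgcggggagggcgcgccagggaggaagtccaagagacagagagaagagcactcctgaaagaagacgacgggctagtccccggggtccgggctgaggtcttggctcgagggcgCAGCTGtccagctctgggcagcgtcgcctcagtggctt
Foxd2: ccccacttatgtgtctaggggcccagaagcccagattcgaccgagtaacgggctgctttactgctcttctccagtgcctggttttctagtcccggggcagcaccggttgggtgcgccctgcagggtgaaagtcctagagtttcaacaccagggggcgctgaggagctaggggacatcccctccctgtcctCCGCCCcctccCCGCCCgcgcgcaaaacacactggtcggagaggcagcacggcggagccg
Fendrr: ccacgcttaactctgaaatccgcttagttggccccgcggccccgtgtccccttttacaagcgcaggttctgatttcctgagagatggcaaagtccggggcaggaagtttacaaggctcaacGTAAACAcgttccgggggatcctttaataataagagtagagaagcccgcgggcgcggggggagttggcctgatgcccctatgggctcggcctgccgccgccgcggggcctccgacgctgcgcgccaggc

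CAGCTG is a form of the E-box (CANNTG), the letters bound by basic helix-loop-helix factors, and stood 38 to 33 bases before the Foxf2 start. Of 32851 promoter windows of this length, 13.0% held CAGCTG and 66.2% held CANNTG. The GC box GGGCGG, present at 32.7% of windows, occurred in Foxd2 at 60 to 55 and at 49 to 44 bases before the start. It occurred 2 times in the Foxf2 window too, where it is left in lower case. The forkhead motif GTAAACA occurred in the Fendrr window at 129 to 123 bases before the start, and in 3.17% of windows. The Gli motif GACCACCCA, the letters of the Hedgehog-responsive factors, was in 0.225% of windows and in none of those matched here. The GC content was 71.6% for Foxf2, 64.4% for Foxd2 and 62.0% for Fendrr, beside a median of 52.4% over all windows. Of the 9 genes, 5 matched the RefSeq promoter table, with Foxd1, Foxc1 and Foxp1 the others. Foxf1, Foxl1, Foxc2 and Foxp2 had no entry. The RefSeq start of Foxd2 lies slightly upstream of the GENCODE start given for the gene here.

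Foxd1 and Foxd2 mark facial mesenchyme that receives Sonic hedgehog, and Foxd1 also marks the stroma of the kidney. Foxd2 (chr4:114906282-114908873, - strand) was at 45.6 and 57.0 in mutant libraries 18 and 14, and at 71.2 and 65.8 in wild-type libraries 15 and 20. The genotypes did not overlap. Its log2 fold change was -0.42 (SE 0.31, 95% interval -1.13 to 0.29, unadjusted p = 0.207, limma adjusted p = 0.9999). Without mutant 18 it was -0.26, and without mutant 14 it was -0.58. Foxd1 (chr13:98354242-98359305, + strand) was at 56.5 and 81.9 in mutant libraries 18 and 14, against 76.5 and 44.9 in wild-type libraries 15 and 20. Its highest and second highest values came from different genotypes. The log2 fold change was 0.21 (SE 0.37, 95% interval -0.65 to 1.08), and it turned to -0.17 without wild-type 20 and -0.05 without mutant 14. The ratio of Foxd1 to Foxd2 was 1.24 and 1.44 in mutant arches, against 1.07 and 0.682 in wild type, with no overlap.

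Foxl1, best known in mesenchyme under the gut epithelium, was near the floor of the table. It was at 5.74 and 12.2 in mutant libraries 18 and 14, and at 7.22 and 8.01 in wild-type libraries 15 and 20. The 95% interval of its log2 fold change, -1.35 to 1.61, was the widest of the 9, and the values overlapped between genotypes.

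Foxc1 is needed for skull bones, jaw and eye, and Foxc2 for lymphatic valves, vessels and skeleton. Foxc2 (chr8:121116171-121118895, + strand) was at 105 and 115 in mutant libraries 18 and 14, against 175 and 132 in wild-type libraries 15 and 20. The genotypes did not overlap, and wild-type 15 was the highest. The means were 109.8 ± 7.04 in mutant and 153 ± 30.05 in wild type (SD, n = 2 each), with a log2 fold change of -0.47 (SE 0.25, 95% interval -1.05 to 0.11, unadjusted p = 0.101, limma adjusted p = 0.9999). Without wild-type 15 the log2 fold change of Foxc2 was -0.27, and without wild-type 20 it was -0.67. Foxc1 (chr13:31806633-31812476, + strand) was at 545.5 and 668 in mutant libraries 18 and 14, and at 607 and 566 in wild-type libraries 15 and 20. Both mutant values lay outside the wild-type pair, one below and one above it. Its log2 fold change was 0.043 (SE 0.16, 95% interval -0.34 to 0.43). The ratio of Foxc1 to Foxc2 within a library was 5.20 and 5.82 in mutant arches, against 3.47 and 4.29 in wild type, with no overlap.

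Foxp1 and Foxp2 are repressors that control chondrocyte and osteoblast maturation in mouse, and Foxp2 is known for vocal and motor circuits. Foxp1 (chr6:98925338-99522721, - strand) was at 1343 and 1554 in mutant libraries 18 and 14, and at 1615 and 1420 in wild-type libraries 15 and 20. The genotypes overlapped, with a log2 fold change of -0.068 (SE 0.15, 95% interval -0.41 to 0.27). Foxp2 was at 228 and 254 in mutant libraries 18 and 14, against 346 and 224 in wild-type libraries 15 and 20. The wild-type libraries held both the highest and the lowest value. The log2 fold change of Foxp2 was -0.21 (SE 0.24, 95% interval -0.78 to 0.36), and it turned to 0.10 without wild-type 15. Foxp1 has 31 annotated transcripts and Foxp2 has 20, which these values per gene cannot separate, while each of the other members has 1.

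**Figure D2:**
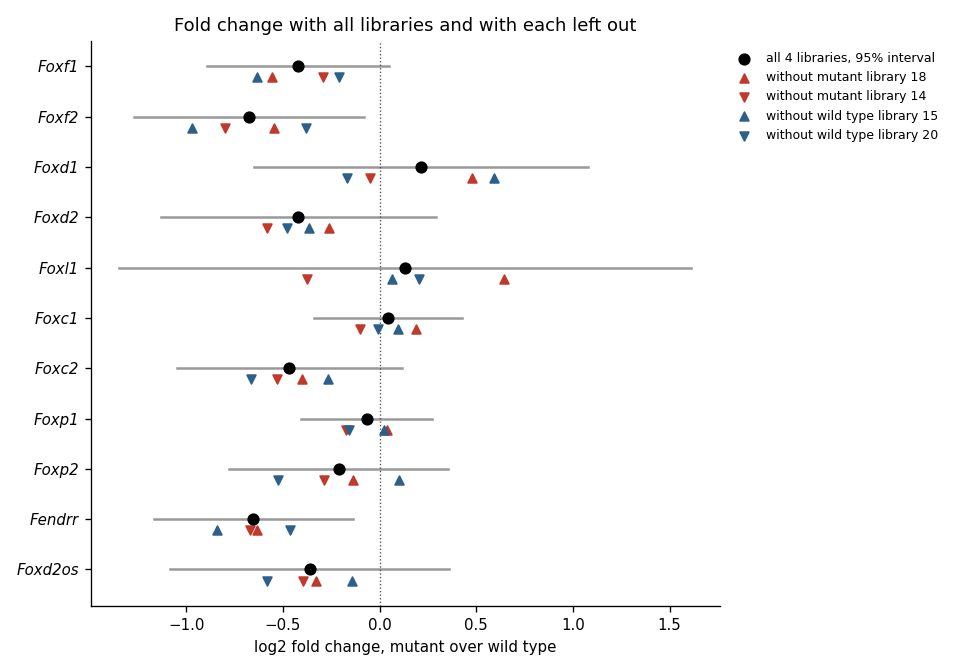
Log2 fold change, mutant over wild type (x axis), of the 9 forkhead genes and the noncoding RNAs Fendrr and Foxd2os. Black points and grey bars are the fit to 4 libraries with its 95% interval, and triangles are fits with 1 library left out. Foxf1, Foxf2, Foxd2, Foxc2, Fendrr and Foxd2os stay below 0 in every fit, while Foxd1, Foxl1, Foxc1, Foxp1 and Foxp2 cross it. The genes that stay below 0 are those with no overlap between genotypes, for which leaving 1 library out cannot change the sign.

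Forkhead genes lie in clusters, and some start beside a noncoding RNA that runs the other way. Fendrr (chr8:121054882-121083110, - strand), a long noncoding RNA of lateral mesoderm in mouse, starts 1276 bases from the start of Foxf1. Fendrr was at 151 and 155 in mutant libraries 18 and 14, against 211 and 275 in wild-type libraries 15 and 20. Both mutant libraries were alike and below both wild-type libraries, with a log2 fold change of -0.65 (SE 0.22, 95% interval -1.17 to -0.14, unadjusted p = 0.0192, limma adjusted p = 0.922). The ratio of Foxf1 to Fendrr was 2.59 and 2.11 in mutant, and 1.97 and 2.02 in wild type. Foxd2os, which starts 384 bases from Foxd2 on the other strand, was at 53.2 and 55.8 in mutant libraries 18 and 14, against 82.0 and 60.2 in wild-type libraries 15 and 20. It did not overlap between genotypes and had a log2 fold change of -0.36 (SE 0.31, limma adjusted p = 0.9999). Leaving out wild-type 15 gave -0.14 for Foxd2os, and leaving out wild-type 20 gave -0.58. Whether the authors counted reads by strand is not stated in the labels, so reads of such neighbours may not be fully separated. The noncoding RNA that starts 24 bases from Foxf2, 1700018A04Rik, was listed at 0 in 3 libraries and at 0.987 in wild-type 20.

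In the chromosome 8 cluster, Foxc2 starts 31.8 kb and Foxl1 43.6 kb from Foxf1. Mthfsd, which lies between Foxf1 and Foxc2, overlapped between genotypes with a log2 fold change of -0.14 (SE 0.17). In the chromosome 13 cluster, Foxq1 starts 69682 bases before Foxf2 and Foxc1 180817 bases after it. Foxq1, a forkhead gene of epithelia and hair, was at 98.8 and 184 in mutant libraries 18 and 14, and at 135 and 88.9 in wild-type libraries 15 and 20. It overlapped, as did Foxc1. Gmds, the gene after Foxc1, did not overlap but differed little (log2 fold change -0.039, SE 0.16).

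**Figure D3:**
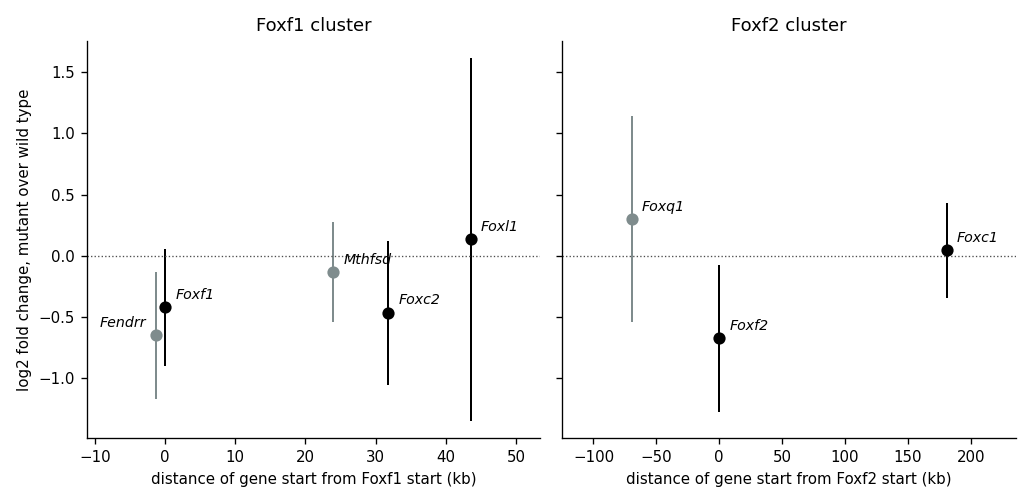
Log2 fold change, mutant over wild type (y axis, bars are 95% intervals), of genes in the Foxf1 cluster (left) and the Foxf2 cluster (right), against the distance of their start from that of Foxf1 or Foxf2 in kb (x axis). Members are black and other genes grey. The points of Fendrr, Foxf1, Mthfsd and Foxc2 lie below 0, and the intervals of Foxf1, Mthfsd and Foxc2 reach above 0. The point of Foxf2 lies below 0, and those of Foxq1 and Foxc1 on its 2 sides lie above 0.

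Per kb of annotated exon, Foxf1 had the highest level of the 9, at 148.9 ± 19.3 in mutant and 201 ± 41.5 normalized counts per kb in wild type (SD, n = 2 each). Its lowest library stood above the highest of Foxp1, the next gene. The levels per kb of Foxp1 (105 ± 10.9 in mutant, 110.4 ± 10.01 in wild type), Foxc1 (103.9 ± 14.9 in mutant, 100.4 ± 4.88 in wild type) and Foxf2 (67.8 ± 8.46 in mutant, 110.3 ± 31.6 in wild type) each overlapped across libraries with the next gene in the order. Foxc2 followed at 40.3 ± 2.58 in mutant and 56.3 ± 11.03 in wild type, and every library of Foxc2 stood above those of Foxd2, at 19.8 ± 3.11 in mutant and 26.4 ± 1.47 in wild type. Foxp2 was at 14.7 ± 1.11 in mutant and 17.5 ± 5.28 in wild type, and Foxd1 at 13.7 ± 3.54 in mutant and 11.99 ± 4.42 in wild type. Foxd2 overlapped with Foxp2 and Foxp2 with Foxd1. Foxl1 was below all, at 3.31 ± 1.68 in mutant and 2.81 ± 0.205 in wild type. Exon length was summed over all transcripts, which lowers the level per kb of Foxp1 and Foxp2 most.

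Of the 50-base stretches of its transcripts, Foxc2 shared 0.149% with Foxc1, and Foxd1 and Foxd2 shared none with another annotated gene. Foxp1 shared the most, 2.42%, while Foxf1 and Foxf2 shared 2.07% and 2.12%, each with 1 gene known by a model number and neither with the other.

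The other 35 forkhead genes were compared in the same fit. Of these, 29 passed the filter of a mean of at least 1, 18 were lower and 11 higher, with a median log2 fold change of -0.077, and 0 passed (limma, 2 at an unadjusted p under 0.05). Foxa2, a factor of endoderm and floor plate, was at 1.92 and 2.02 in mutant libraries 18 and 14, against 11.3 and 8.01 in wild-type libraries 15 and 20 (log2 fold change -2.02, SE 0.71, limma adjusted p = 0.951). Its values were near the floor of the table. In all, 5 of the 29 did not overlap as lower, with Foxa2, Foxn4, Foxo1 and Foxr2 among them, and 1 as higher (Foxi1). Over all genes tested, 27.4% did not overlap in either direction, and the forkhead counts were not tested against that share. Widely expressed forkheads such as Foxo1, at 1356 and 1393 in mutant and 1487 and 1493 in wild type, differed little (log2 fold change -0.12, SE 0.13). Whether the 9 members differ from the other forkheads was not tested.

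**Figure D4:**
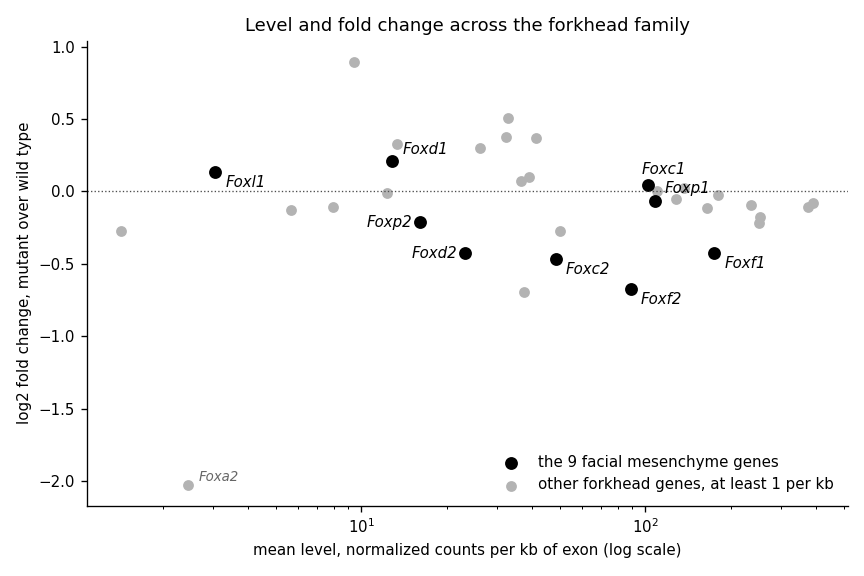
Log2 fold change, mutant over wild type (y axis), against mean level in normalized counts per kb of exon (x axis, log scale), for the 9 members (black) and the other forkhead genes tested that had a level of at least 1 per kb (grey). Foxf2, Foxc2, Foxf1 and Foxd2 are the lowest of the members, and Foxa2, far below 0, lies at the low-level end.

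Hedgehog ligands bind Ptch1, which frees Smo to act on the Gli factors, and Ptch1, Gli1 and Hhip are themselves targets. Of 18 Hedgehog genes listed, 15 were lower in mutant and 3 higher, while 49.4% of all genes tested were lower. Their median log2 fold change was -0.13, beside 0.0025 for all genes. Without mutant 18, 10 of the 18 were lower (median -0.065), and without wild-type 15, 11 were (median -0.052), while without mutant 14 and without wild-type 20 the counts were 17 (median -0.20) and 16 (median -0.21). Of the 18, 0 passed (limma), and 4 had an unadjusted p under 0.05, all lower, beside 1.15% of all genes tested. The 7 with no overlap as lower were Shh, Ihh, Ptch1, Smo, Gli1, Hhip and Kif7, and Dhh did not overlap as higher. The order of the 4 libraries was the same for Foxf2, Fendrr, the ligands Shh and Ihh, and Smo, namely wild-type 20, wild-type 15, mutant 14 and mutant 18. The order of Foxf1 was that of Ptch1 and Hhip, namely wild-type 20, wild-type 15, mutant 18 and mutant 14. The order of Foxd2, Foxc2 and Foxd2os was that of Gli1 and Kif7, with wild-type 15 the highest and mutant 18 the lowest. With 4 libraries these orders are a description, and a shared order is not a close likeness in size. Few orders are possible once both mutant libraries lie below both wild-type libraries, so some of these genes had to share one. Genes outside the Hedgehog list had them too, such as Msx2 and Bmp4 (as Foxf2), Sp7 and Col10a1 (as Foxf1) and Sox9 (as Foxd2). The log2 fold changes were -1.47 (SE 0.30, limma adjusted p = 0.365) for Shh, -0.89 (SE 0.27, 0.788) for Ihh, -0.53 (SE 0.13, 0.536) for Ptch1, -0.51 (SE 0.15, 0.742) for Gli1 and -0.33 (SE 0.16, 0.9999) for Hhip, with the adjusted p second in each. Hhip, an antagonist that binds the ligands, was at 1095 and 871 in mutant libraries 18 and 14, and at 1189 and 1261 in wild-type libraries 15 and 20. Its log2 fold change was -0.16 without mutant 14 and -0.49 without mutant 18.

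The genes most like Foxf2 over the 4 libraries were found by Euclidean distance between centred log2 values, among 13518 other genes with a mean of at least 50. They were Pcp4, a calmodulin-binding peptide (distance 0.161), Stac, an adaptor protein (0.193), and Lhx6, a LIM-homeobox factor of jaw mesenchyme (0.195). Fendrr was next (0.217) and Foxf1 was at rank 103 (0.460). The Hedgehog gene Ptch1 was at rank 109, Gli1 at 216 and Shh, which differed more between genotypes than Foxf2, at 5676 (0.821). Ranks of the other Hedgehog genes are not reported here. Lhx6 was at 354 and 463 in mutant libraries 18 and 14, and at 475 and 697 in wild-type libraries 15 and 20. Among the members, Foxf1 and Foxf2 were each other's nearest (0.460), as were Foxd2 and Foxc2 (0.248) and Foxc1 and Foxp1 (0.139). Foxd1 was nearest to Foxp2, Foxl1 to Foxc1 and Foxp2 to Foxc2.

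In bulk tissue, fewer cells of a type and less RNA per cell cannot be told apart. Of 12 fibroblast and mesenchyme markers, 6 were lower, with no marker at 0, and they summed to 1067465 and 1031602 in mutant libraries 18 and 14, against 1245724 and 1220999 in wild-type libraries 15 and 20. The list median log2 fold change was 0.013, and the lower sum lay in 2 collagens, Col1a1 (412514 and 417344 in mutant, 541155 and 519187 in wild type) and Col1a2 (350569 and 323949 in mutant, 420900 and 417789 in wild type). The other 10 markers overlapped between genotypes. All 14 keratinocyte markers were higher, and summed to 206527 and 309248 in mutant arches, against 137177 and 135048 in wild type. All 12 cartilage markers were lower, and summed to 63315 and 53434 in mutant arches, against 86879 and 71170 in wild type. Of 10 osteoblast markers, 8 were lower, 6 of them with no overlap (Sp7, Runx2, Alpl, Dmp1, Phospho1 and Smpd3), with a median log2 fold change of -0.47. Their sums overlapped, at 126857 and 84775 in mutant and 121468 and 135093 in wild type, and Ibsp, a bone matrix protein, made up most of them (85313 and 52902 in mutant, 72365 and 82268 in wild type). The part of these shifts in the forkhead values was not tested.

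Vessels also express Foxc2 and Foxf1. Of 12 blood endothelium markers 9 were lower, with sums of 14850 and 14349 in mutant and 14966 and 14893 in wild type, a ratio of means of 0.978. Of 7 lymphatic markers 6 were higher, with sums of 4128 and 4744 in mutant and 4029 and 3747 in wild type. No marker of either list was at 0 in every library. Their part in the Foxc2 and Foxf1 values was not tested.

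Set against single mesenchymal genes of the same library, the Foxf values gave mixed pictures. Foxf2 over Twist1, a mesenchymal factor of the face, was 0.116 and 0.119 in mutant libraries 18 and 14, against 0.164 and 0.247 in wild-type libraries 15 and 20. Foxf2 over Pdgfra, a receptor of mesenchymal cells, was 0.0146 and 0.0211 in mutant arches, against 0.0214 and 0.0369 in wild type. Both ratios did not overlap. Foxf2 over Prrx1, another mesenchymal factor, was 0.0189 and 0.02098 in mutant, and 0.0198 and 0.0408 in wild type, so mutant 14 lay above wild-type 15. Foxf1 likewise did not overlap over Twist1 or Pdgfra and overlapped over Prrx1.

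**Figure D5:**
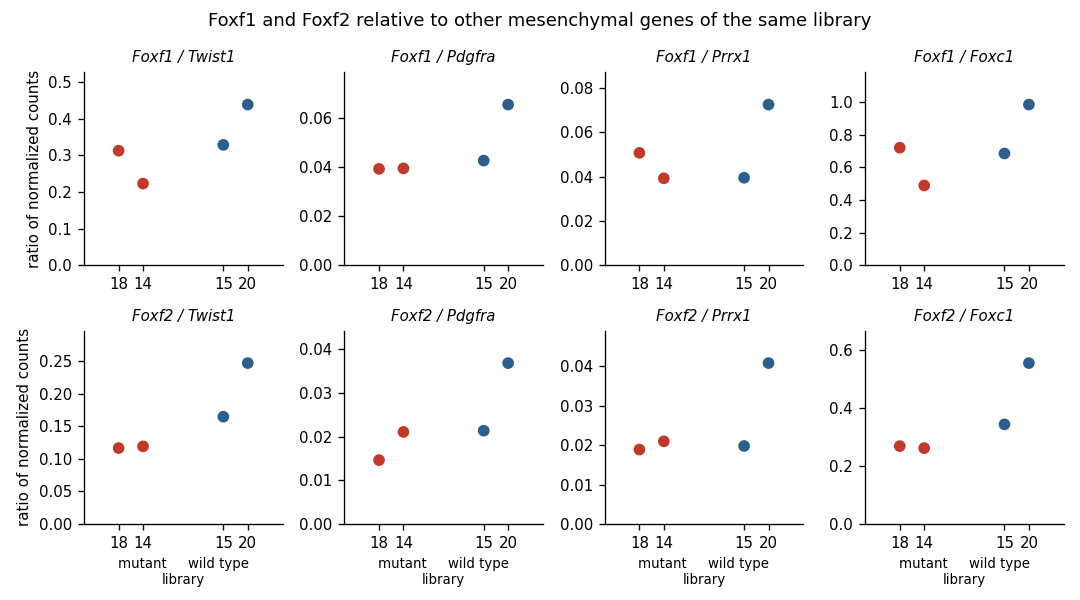
Ratio of Foxf1 (top) and Foxf2 (bottom) to Twist1, Pdgfra, Prrx1 and Foxc1 in the same library (y axis, from 0), for mutant libraries 18 and 14 (red, left) and wild-type libraries 15 and 20 (blue, right). Wild-type 20 is the highest point in all 8 panels, and the genotypes overlap for both genes over Prrx1 and for Foxf1 over Foxc1.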

How the data were processed

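RNA of 4 libraries, 2 per genotype, was extracted with an RNeasy kit and made into libraries with a stranded mRNA kit, per the labels' protocols. The deposited signal values are normalized counts, 1 per gene and library. Per the submitters' processing notes, the tool DESeq2 and the build mm10 are named, and the series' design text names an Illumina differential expression program. For aligner, counter, strand setting and annotation the entry is: not given in the sources used here. Raw read depth is unknown, since only 2.3% of the values above 0 are whole numbers. Totals were 22134483 to 22578580 per library.

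Values were transformed to log2(value + 0.5), which understates changes of low genes. Genes with a mean of at least 1 (17979 of 24972, all 9 members among them) were fitted by genotype using limma 3.58.1 (R 4.3.3) and its trended prior, moderated variances and Benjamini-Hochberg adjustment over all genes at 0.05. The fit was tested on simulated data. No 2 libraries held identical values above 0 for any gene. Coordinates and exon lengths are from GENCODE M21 (GRCm38, which mm10 denotes), and promoters from RefSeq GRCm38.p6.

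The members and lists were chosen with earlier results of these data known. Named genes are the members, genes beside them, Shh, Ptch1, Gli1 and Hhip, list members with an unadjusted p under 0.05, and the 3 genes nearest to Foxf2. Some genes that this rule names are not reported here. Others were chosen after their values were seen. Lists of genes were described by counts and medians, with no test. Their counts below an unadjusted p of 0.05 or with no overlap stand beside the all-gene shares given for the members. Counts of lower genes stand beside the 49.4% of all genes tested that were lower. Alternatives covered scaling, filter, pseudocount, variance model and each library left out.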

Additional observations from a re-analysis of the deposited data

How the results depend on the processing

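Foxf1, Foxf2, Foxd2 and Foxc2 kept a log2 fold change below 0 in all 12 alternatives, and no member passed in any of those that tested it. These are the members with no overlap, so leaving 1 library out could not change their sign, and the kept sign adds nothing to that. With 1 library left out, log2 fold changes ran from -0.17 to 0.59 for Foxd1, -0.38 to 0.64 for Foxl1, -0.10 to 0.19 for Foxc1, -0.17 to 0.038 for Foxp1 and -0.53 to 0.10 for Foxp2. With every library kept, no sign changed. With a mean of at least 10 as the filter, Foxl1 was not tested. Calls over all genes numbered 2, and 1 with no filter, 1 with no mean-variance trend, 4 with pseudocount 1, 0 with vooma weights and 0 to 6 with a library left out (6 without wild-type 20, 3 without wild-type 15 and 0 without mutant 18 or mutant 14). The count of members with no overlap, 4, was 6 to 7 with 3 libraries, where fewer values have to be separated, and included genes higher in mutant without mutant 18 (3) and without wild-type 15 (2). The Hedgehog median ran from -0.21 to -0.052. No paired analysis was possible because library codes are not shared between genotypes. Depth is unknown, and the normalized counts of Foxl1 and Foxa2 rest on few counts.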

Other observations

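Other transcription factors of facial and palatal mesenchyme split in direction. Of 21 listed, 12 were lower and 9 higher in mutant, with a median log2 fold change of -0.087 and 0 passing (limma, 3 at an unadjusted p under 0.05). Alx1, a factor of the frontonasal face, was at 539 and 441 in mutant libraries 18 and 14, against 347 and 287 in wild-type libraries 15 and 20 (log2 fold change 0.63, SE 0.19, limma adjusted p = 0.775). Six2, a progenitor factor of mesenchyme, was at 655 and 638 in mutant arches, against 852 and 978 in wild type (-0.50, SE 0.15, limma adjusted p = 0.745).

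The list of 12 genes linked to forkhead members in mouse does not say whether a member raises or lowers them. Of these, 8 were lower and 4 higher in mutant, with a median log2 fold change of -0.21. By limma 0 passed, and 3 had an unadjusted p under 0.05, all lower. Those were Msx2, a homeobox gene linked to Foxc1 (286 and 305 in mutant libraries 18 and 14, 473 and 549.5 in wild-type libraries 15 and 20), the cartilage collagen Col10a1 (6991 and 6418 in mutant, 8451 and 9771 in wild type) and the osteoblast factor Runx2 (4100 and 3214 in mutant, 5201 and 5061 in wild type). Col10a1 is counted among the cartilage markers too, and Runx2 among the osteoblast and dental mesenchyme markers. Msx2 and Col10a1 were listed for Foxc1, whose own log2 fold change was 0.043. Fgf18, a growth factor linked to the Foxf genes in palate, overlapped, at 150.4 and 269.9 in mutant and 220.01 and 146 in wild type. Of the other marker lists, the summed normalized counts were lower with no overlap for dental mesenchyme (10257 and 8375 in mutant, 11207 and 13155 in wild type). They were higher with no overlap for salivary gland, almost wholly through mutant 14 (578 and 7060 in mutant, 499 and 382 in wild type). Neural sums were higher too (2101 and 3431 in mutant, 2016 and 2095 in wild type), but mutant 18 lay close to wild-type 20. Melanocyte sums were also higher (505 and 544 in mutant, 346 and 378 in wild type). Mural, muscle, macrophage and dental epithelium sums overlapped between genotypes, although 8 of 9 macrophage markers were higher, 5 of them with no overlap.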
